A study of Mus musculus with 36 samples.

Results

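NPC2 cells of the adult mouse brain were compared with NPC1 cells, a second population sorted from the same tissue. The comparison took in the 3 libraries labelled NPC2 and the 4 labelled NPC1, 7 of the 36 libraries of the series, and every gene whose log2 value reached 0 in 3 or more libraries of either group, which left 15564 of 19909 genes. All 7 libraries came from C57BL/6 mice aged 8 weeks, and the cells were sorted by flow cytometry from homogenised subependymal zone, the germinal layer along the lateral ventricles. The 28 freshly sorted libraries cover 8 populations, among them activated neural stem cells (labelled aNSC) and a first group of neuroblasts (NB1), and the other 8 libraries come from cultured neurosphere cells. The labels give no genetic change, no treatment of the mice and no sorting gates for NPC2 or NPC1, and do not say how many mice were pooled for a library. They call the libraries biological replicates without naming animals, so the p-values reflect only how far libraries of a population differ from each other.

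In this niche, stem cells related to astrocytes leave quiescence, become activated and give rise to transit amplifying progenitors, which divide quickly and then turn into migrating neuroblasts. Epidermal growth factor receptor (encoded by Egfr) is carried by activated stem cells and by many of these progenitors. The Dlx homeobox factors and Pax6 steer the progeny towards types of olfactory bulb interneuron, while the proneural factor Neurog2 belongs to glutamatergic neurons. The Notch pathway holds part of the cells in an undifferentiated state.

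Values are on the deposited log2 scale, close in form to log2 CPM (reads of a gene relative to all reads of its library), and differences are NPC2 minus NPC1 with their SE from limma, with 3 NPC2 and 4 NPC1 libraries throughout. A gene was called when its p-value, adjusted by Benjamini and Hochberg over all 15564 genes, was under 0.05. Correlations across genes, which are not independent replicates, ran from 0.940 to 0.957 between an NPC2 and an NPC1 library, 0.956 to 0.974 within NPC2 and 0.956 to 0.984 within NPC1. The first principal component of the 7 libraries held 37.2% of the variance and placed the NPC2 libraries between 30.1 and 42.5 and the NPC1 libraries between -36.4 and -12.7, with NPC1 replicate 1 nearest to NPC2. Read totals are not in the table. As a stand-in for depth, 1170 to 1684 genes lay at the lowest value of their library in NPC2, against 617 to 777 in NPC1, and these ranges did not overlap (exact permutation test, 35 arrangements, two-sided p = 0.0286, the smallest it can give). Depth therefore cannot be told apart from population for genes near the floor, which lay between -4.73 and -4.24 in NPC2 and between -5.06 and -4.97 in NPC1. In bulk libraries, fewer cells of a type and less RNA per cell cannot be told apart either.

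Most genes called between NPC2 and NPC1 were lower in NPC2. In limma, 241 genes passed, 1.55% of those tested, of which 38 were higher in NPC2 (0.244% of those tested) and 203 lower (1.3%). Of these, 130 differed by more than 2-fold, 17 higher and 113 lower. The median difference over all tested genes was 0.02. With library weights in the fit, 2971 genes passed and 44.7% of them were higher in NPC2, against 15.8% of the 241. The libraries of the groups did not overlap for 233 of the 241 called genes, against a background of 3028 of all 15564 genes (19.5%). Of the genes called lower, 175 of 203 were protein coding, and 27 lay at the floor in at least 1 NPC2 library. Only 41 of the 241 calls, 6 higher and 35 lower, passed in each of 18 other analyses (listed with the processing) that tested them. Leaving out 1 library ended 196 of the calls in at least 1 of 7 fits, and the number of called genes was then 73 without NPC2 replicate 1, 123 without NPC2 replicate 2, 120 without NPC2 replicate 3, 193 without NPC1 replicate 1, 122 without NPC1 replicate 2, 119 without NPC1 replicate 3 and 99 without NPC1 replicate 4. Among the genes named below, 12 that were not called passed with the 7 NPC libraries alone in the fit and 17 with library weights, and 4 that were called did not pass with the 7 NPC libraries alone. The 12 were Cdkn1c, Notch1, Fos, Egr1, Btg2, Gsx1, Gsx2, Olig2, Elavl3, Gad2, Cdc20 and Ube2c. With library weights these passed too, as did Cd24a, Cd9, F3, Cdkn1b and Nrarp. The genes described first below are from those 41. For the gene lists described later, the background over all tested genes is 1.55% called, 46.9% with a difference below 0 and 19.5% without overlap. For counts at an unadjusted p under 0.05 in limma, it is 1605 of the 15564 genes.

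**Figure D1:**
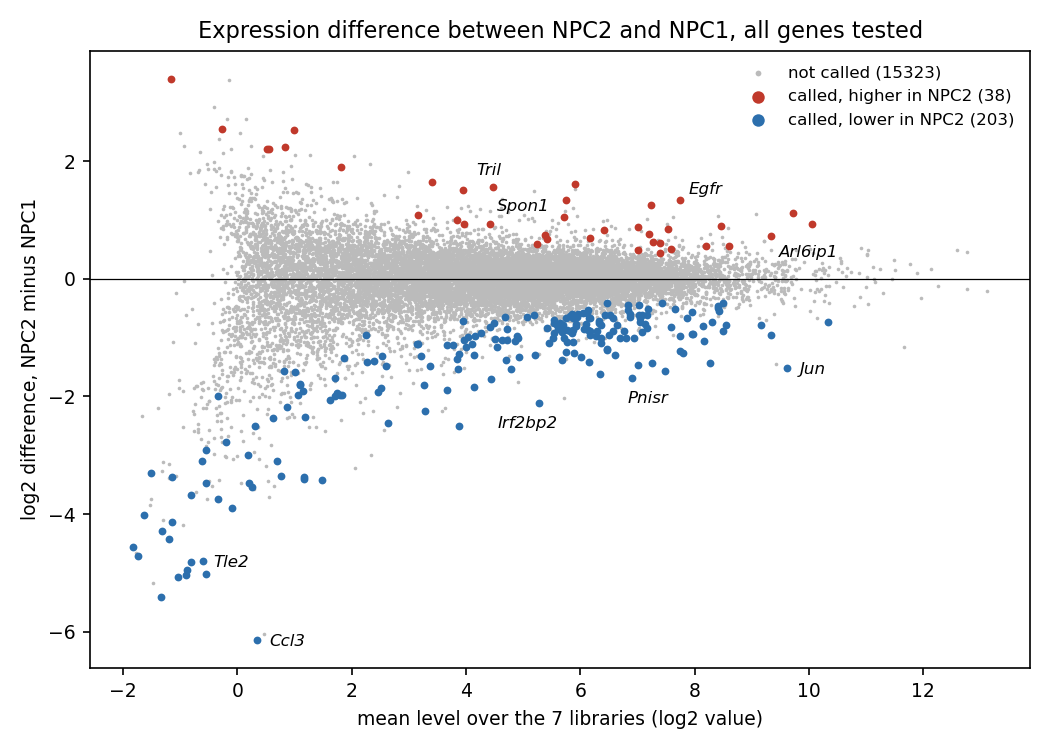
Mean level over the 7 libraries (x axis, log2 value) against the log2 difference of NPC2 minus NPC1 (y axis) for each of the 15564 genes tested. The 38 genes called higher in NPC2 are red, the 203 called lower are blue and the rest grey, and blue points outnumber red ones in each quartile of mean level.

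Egfr was higher in NPC2. On chromosome 11 (16752203 to 16918158, plus strand, GRCm38), it read 8.59, 8.33 and 8.61 in NPC2 libraries, against 6.69, 7.32, 7.14 and 7.54 in NPC1 libraries. The highest NPC1 library lay below the lowest NPC2 library, and the difference was 1.34 ± 0.21, a 2.53-fold higher level (limma, adjusted p = 0.00126). Egfr averaged 9.76 in aNSC and 5.53 in NB1, so both progenitor populations lay between the activated stem cells and the neuroblasts. The sources used here do not say whether the sort used this receptor.

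Next to Egfr stood Spon1, which encodes the secreted matrix protein F-spondin. It read 6.74, 6.34 and 6.44 in NPC2, against 5.35, 5.22, 5.11 and 5.01 in NPC1, with a wide gap between the groups and little spread within them (difference 1.33 ± 0.20, 2.52-fold, limma adjusted p = 0.000774). Unlike Egfr, Spon1 had like means in NB1 (7.02) and aNSC (6.89), so NPC1 held the lowest mean of these 4 populations. Tril, which encodes a leucine-rich repeat partner of Toll-like receptor 4, read 5.50, 5.25 and 5.35 in NPC2, against 3.04, 3.94, 4.09 and 4.16 in NPC1. All NPC1 libraries were lower, NPC1 replicate 1 most of all (difference 1.56 ± 0.29, limma adjusted p = 0.00538). Arl6ip1, whose product shapes the endoplasmic reticulum, read 9.79, 9.77 and 9.69 in NPC2, against 9.27, 8.92, 9.05 and 8.86 in NPC1, a smaller but tight difference of 0.72 ± 0.12 (limma, adjusted p = 0.0021). The remaining 2 of the 6 higher genes that passed throughout, Gm16499 and Gm26846, are uncharacterised transcripts.

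Sox8, a SoxE transcription factor, was 0.84 ± 0.17 higher (limma, adjusted p = 0.00831). It read 6.94, 6.80 and 6.94 in NPC2, against 5.59, 6.04, 6.24 and 6.36 in NPC1, without overlap. Among genes called higher without overlap that averaged 4.3 or more in NPC2, leaving out clone names, the 10 largest differences included Egfr, Spon1 and Tril. The other 7 were those of Olfm2, a secreted olfactomedin (1.62 ± 0.39), Emp1, a tetraspan membrane protein (1.51 ± 0.37), and Mfge8, a secreted protein that tags dying cells for uptake (1.12 ± 0.29). Fbln2, a matrix fibulin (1.05 ± 0.26), the semaphorin receptor Plxna1 (1.00 ± 0.23), the cytosolic collapsin response mediator Dpysl3 (0.93 ± 0.22) and the cadherin Cdh20 (0.93 ± 0.23) followed. Their adjusted p in limma lay between 0.0235 for Plxna1 and 0.0482 for Mfge8. These calls were fragile. Olfm2 and Mfge8 lost theirs in each of the 7 fits that left out 1 library (adjusted p 0.0558 to 0.129 and 0.0625 to 0.229). Mfge8 lost its call in 11 of the 18 alternatives, among them centring on a trimmed mean (adjusted p = 0.0505) and no trend or robust setting (0.0831). Emp1, Fbln2 and Cdh20 lost theirs without any one library but NPC1 replicate 3 (0.052 to 0.184, 0.0506 to 0.177 and 0.0824 to 0.203), and Dpysl3 without any one but NPC1 replicate 1 (0.0554 to 0.155). Plxna1 lost its call without NPC2 replicate 1, NPC2 replicate 3, NPC1 replicate 3 or NPC1 replicate 4 (0.0679 to 0.191), and Sox8 without NPC2 replicate 1 (0.0584).

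**Figure D2:**
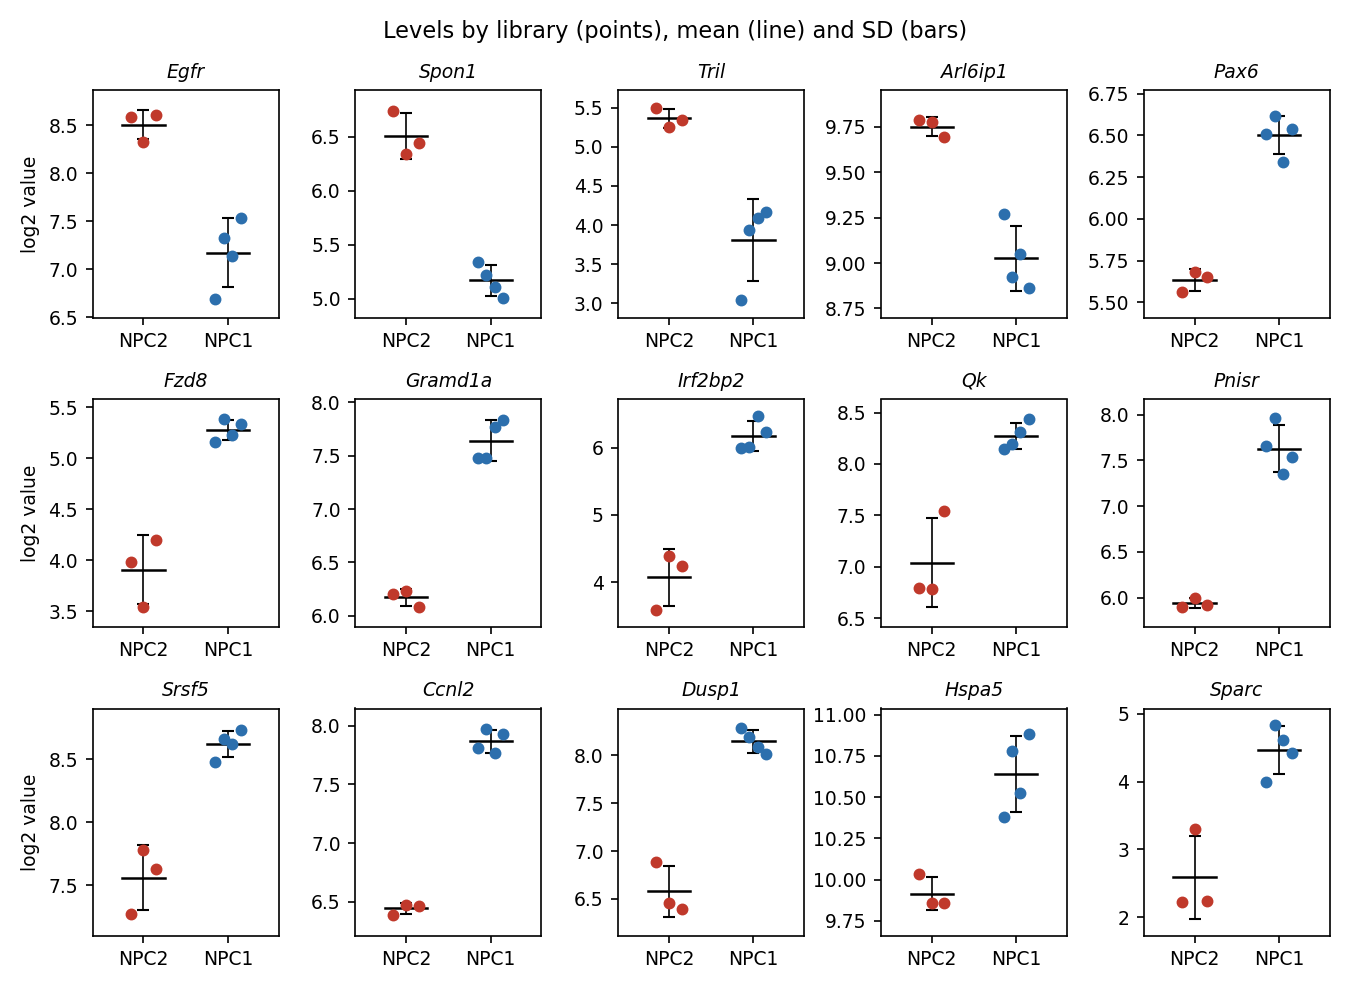
Log2 value (y axis) of 15 genes called in each of the 18 other analyses that tested them, for the 3 NPC2 libraries (red, left) and the 4 NPC1 libraries (blue, right), with the group mean (line) and SD (bars) and a y axis of its own in each panel. Egfr, Spon1, Tril and Arl6ip1 are higher in NPC2 and the other 11 lower, and the points of the groups do not overlap in any panel.

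Among genes called lower without overlap that averaged 4.3 or more in NPC1, leaving out clone names, the 5 with the smallest p were Gramd1a, Irf2bp2, Pnisr, Qk and Khdrbs3. Gramd1a, whose product moves cholesterol from the plasma membrane to the endoplasmic reticulum, read 6.20, 6.24 and 6.08 in NPC2, against 7.47, 7.48, 7.77 and 7.84 in NPC1. The groups were more than 1 log2 unit apart, and the difference was -1.47 ± 0.17, a 2.77-fold higher level in NPC1 (limma, adjusted p = 2.03e-05). Irf2bp2, a corepressor that partners interferon regulatory factor 2, read 3.59, 4.39 and 4.24 in NPC2, against 6.00, 6.00, 6.47 and 6.24 in NPC1. The difference was -2.10 ± 0.26 (4.3-fold higher in NPC1, limma adjusted p = 3.75e-05). Irf2bp2 averaged 6.29 in aNSC and 6.40 in NB1, so NPC2 held the lowest mean of these 4 populations. Qk, which encodes the RNA-binding protein Quaking, read 6.79, 6.79 and 7.54 in NPC2, against 8.15, 8.20, 8.31 and 8.44 in NPC1. NPC2 replicate 3 lay nearest to NPC1 but still below it (difference -1.23 ± 0.17, limma adjusted p = 0.000176). Khdrbs3, a related RNA-binding regulator of splicing, read 5.29, 4.97 and 5.98 in NPC2, against 7.02, 6.79, 7.27 and 7.03 in NPC1, again without overlap (-1.62 ± 0.23, limma adjusted p = 0.000444).

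The fifth, Pnisr, a nuclear protein rich in serine and arginine, read 5.90, 6.00 and 5.92 in NPC2, against 7.66, 7.96, 7.35 and 7.53 in NPC1 (difference -1.69 ± 0.22, limma adjusted p = 7.97e-05). Srsf5, an SR splicing factor, read 7.27, 7.78 and 7.63 in NPC2, against 8.48, 8.66, 8.62 and 8.73 in NPC1 (-1.06 ± 0.18, limma adjusted p = 0.0021). In both genes each NPC2 library lay below all NPC1 libraries. Ccnl2, a cyclin tied to splicing, read 6.39, 6.47 and 6.47 in NPC2, against 7.81, 7.97, 7.76 and 7.93 in NPC1 (-1.42 ± 0.25, limma adjusted p = 0.00347). Rsrp1 (-1.43 ± 0.25), Luc7l3 (-1.02 ± 0.18), which encodes a partner of the U1 particle, Rbm39 (-0.78 ± 0.13) and Srek1 (-0.62 ± 0.12) fell as well, with adjusted p from 0.00274 to 0.00609 in limma. Srsf5 belongs to the list of hnRNP and SR factors, and Ccnl2, Rsrp1, Luc7l3, Rbm39 and Srek1 were chosen after their values were seen.

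The list of splicing factors as a whole shifted little. Of 37 hnRNP and SR splicing factors, all of which were tested, 4 were lower and none higher, with 24 of 37 differences below 0 (46.9% of all tested genes) and a median of -0.06, beside 0.02 for all tested genes. The other 3 calls were Hnrnpdl (-0.74 ± 0.16), Srsf11 (-0.55 ± 0.14) and Hnrnph1 (-0.50 ± 0.12), with adjusted p of 0.0146, 0.0396 and 0.0359 in limma. Hnrnpdl lost its call without NPC2 replicate 1 or NPC1 replicate 4 (adjusted p 0.0502 to 0.155), Hnrnph1 without any one library but NPC1 replicate 1 (0.0803 to 0.157), and Srsf11 in all 7 such fits (0.0604 to 0.234). Many splicing genes carry annotated transcripts with a retained intron or a premature stop. In GENCODE M21, 66.3% of the 175 protein-coding genes called lower had a retained-intron transcript, against 58.4% of all tested protein-coding genes and 64.7% of those with a mean of at least 4. Transcripts annotated for nonsense-mediated decay were present for 42.3% of the genes called lower, 29.3% of all tested and 32.6% of those with a mean of at least 4.

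Some noncoding RNAs that stay in the nucleus or host small nucleolar RNAs were lower in NPC2. Of 16 listed, 14 were tested and 4 fell, with none higher, 8 without overlap and a median difference of -0.66. Of all tested genes, 1.3% were called lower and 19.5% did not overlap, with a median of 0.02. The summed linear level of the list overlapped between the groups, at 2683 to 2749 in NPC2, against 2637 to 4269 in NPC1. Gas5, a host of small nucleolar RNAs, read 6.14, 6.45 and 6.51 in NPC2, against 7.40, 7.50, 7.24 and 7.34 in NPC1 (-1.0 ± 0.22, limma adjusted p = 0.0179). Snhg17, another host gene, is not among the calls of the list and was chosen after its values were seen. Its values were 4.06, 4.02 and 4.05 in NPC2, against 4.90, 4.97, 5.05 and 5.40 in NPC1 (-1.04 ± 0.19, limma adjusted p = 0.00425). Neither gene overlapped between the groups. Snhg11 lay at the floor in all 3 NPC2 libraries and between -0.40 and 0.62 in NPC1 (limma, adjusted p = 0.00347), and no fold is given for it. The paraspeckle RNA Neat1 (limma, adjusted p = 0.017) read -1.25, -4.24 and 0.16 in NPC2, against 0.53, 0.83, 1.66 and 0.97 in NPC1. The imprinted RNA Meg3 (limma, adjusted p = 0.0248) read -0.33, 0.08 and 0.41 in NPC2, against 1.22, 2.84, 2.05 and 1.72 in NPC1. Snhg11 and Neat1 are near the floor, and both lost their call when values below 0 were set to 0 (adjusted p = 0.90 and 0.176). Neat1 also lost it with the 7 NPC libraries alone (adjusted p = 0.12). Gas5 lost its call without NPC2 replicate 1 or NPC1 replicate 2 (adjusted p 0.0561 to 0.134), Neat1 without NPC2 replicate 2 or NPC1 replicate 3 (0.0632 to 0.127), and Meg3 without any one library but NPC2 replicate 3 or NPC1 replicate 1 (0.0506 to 0.154). Among the 15 tested genes with symbols beginning Snhg, a family chosen after its values were seen, 3 were lower, 14 of 15 differences were below 0 and the median was -0.67.

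Fate-determining transcription factors did not move as a block. Pax6, a factor of the dopaminergic and dorsal interneuron lineages (chromosome 2, 105668900 to 105697364, plus strand), fell. It read 5.56, 5.68 and 5.65 in NPC2, against 6.51, 6.61, 6.34 and 6.54 in NPC1, without overlap (difference -0.87 ± 0.14, limma adjusted p = 0.00119). Of 32 proneural, Dlx and related factors listed, 29 were tested, 2 were lower and none higher, and the median difference was 0.07. The second was Neurog2, a proneural factor of glutamatergic neurons, which read -4.31, -4.24 and -2.11 in NPC2, against 1.22, 1.41, 1.29 and 1.12 in NPC1. It was thus at the floor in 2 of the 3 NPC2 libraries and low but present in every NPC1 library (limma, adjusted p = 0.0319). Its call ended without any one library but NPC2 replicate 3 (adjusted p 0.0599 to 0.17).

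In the list of proneural, Dlx and related factors, 13 of the 29 tested genes did not overlap and 11 had an unadjusted p under 0.05 in limma. Of all tested genes, 19.5% did not overlap and 1605 of 15564 had such a p. The differences of the list went both ways, with 15 above 0 and 14 below. Other members of that list had separate libraries but did not pass. Gsx1, a ventral homeobox factor, read 6.88, 6.66 and 6.80 in NPC2, against 5.45, 5.20, 5.13 and 5.25 in NPC1 (difference 1.52 ± 0.42, limma adjusted p = 0.0716). Its paralogue Gsx2 had the opposite sign, with 5.25, 5.86 and 5.78 in NPC2, against 6.57, 6.59, 6.68 and 6.95 in NPC1 (-1.07 ± 0.35, limma adjusted p = 0.162). Olig2, a factor of oligodendrocyte-forming progenitors, differed by 1.49 ± 0.47 (limma, adjusted p = 0.137). All 3 genes had libraries that did not overlap. A fit with the 7 NPC libraries alone gave adjusted p of 0.000385 for Gsx1, 0.00633 for Gsx2 and 0.00183 for Olig2, so for these genes the call depends on how the spread is estimated. Dlx2, a core interneuron factor, read 11.10 to 11.31 in NPC2, against 10.97 to 11.15 in NPC1 (0.20 ± 0.25, limma adjusted p = 0.896).

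Signalling genes passed one at a time. Fzd8, a Wnt receptor, was the only call among 23 tested genes of the Wnt list. It read 3.98, 3.54 and 4.20 in NPC2, against 5.16, 5.39, 5.23 and 5.34 in NPC1, with no overlap (difference -1.37 ± 0.21, limma adjusted p = 0.000873). Id4 and Id2, inhibitors of proneural factors and targets of BMP signalling, were the 2 calls among 22 tested BMP and TGF-beta genes and also the 2 among 30 astroglial genes. Id4 read 6.65, 6.72 and 6.65 in NPC2, against 7.42, 7.18, 7.36 and 7.39 in NPC1 (-0.66 ± 0.14, limma adjusted p = 0.0123). Id2 differed by -0.90 ± 0.23 (limma, adjusted p = 0.0401). Neither overlapped, but Id4 lost its call without NPC2 replicate 1 or NPC2 replicate 3 (adjusted p 0.0537 to 0.0681) and Id2 in all 7 fits without 1 library (0.0579 to 0.234). Of 25 tested Notch genes 0 passed in limma, and 3 had an unadjusted p under 0.05, against 1605 of all 15564 tested genes. Notch1 itself read 7.36, 6.52 and 6.99 in NPC2, against 5.60, 5.78, 6.19 and 6.36 in NPC1 (0.98 ± 0.29, limma adjusted p = 0.0999), and its target Nrarp differed by 0.60 ± 0.19 (limma, adjusted p = 0.139). Notch1 passed with the 7 NPC libraries alone (adjusted p = 0.0406), with library weights (0.00157) and with the length and GC correction (0.00905). It also passed with a replicate block on replicates 1 to 3 (0.0236), over a range of 0.00157 to 0.504 in 18 alternatives. Nrarp passed with library weights (0.00406) and with the length and GC correction (0.0264), over a range of 0.00406 to 0.398. The Notch ligand Dll1 differed by 0.10 ± 0.70 (limma, adjusted p = 0.991).

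Among the lower genes chosen under the same limits, the 10 largest differences belonged to genes of various roles. Igflr1, a receptor of the tumour necrosis factor receptor type, read 2.57, 2.45 and 2.32 in NPC2, against 4.66, 5.10, 4.93 and 5.09 in NPC1 (difference -2.50 ± 0.61, limma adjusted p = 0.0323). Sparc, a matricellular glycoprotein, read 2.22, 3.30 and 2.24 in NPC2, against 4.00, 4.84, 4.62 and 4.43 in NPC1 (-1.88 ± 0.35, limma adjusted p = 0.00434). Both were separate in every library. The Rab regulator Dennd6b (-1.84 ± 0.40), the microtubule kinase Mark1 (-1.70 ± 0.39), the TGF-beta corepressor Ski (-1.54 ± 0.37) and the metalloproteinase Adamts10 (-1.54 ± 0.35) completed the 10 largest with Irf2bp2, Pnisr, Khdrbs3 and Dusp1, and their adjusted p in limma lay between 0.0165 for Dennd6b and 0.0311 for Ski. Sparc passed in every alternative that tested it. Igflr1 lost its call without any one library but NPC1 replicate 1 (adjusted p 0.0762 to 0.129), and Mark1 likewise (0.0537 to 0.149). Dennd6b lost it without NPC2 replicate 1, NPC2 replicate 2 or NPC1 replicate 4 (0.052 to 0.123), and Ski and Adamts10 without any of these or NPC1 replicate 3 (0.114 to 0.17 and 0.063 to 0.174).

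Part of the immediate early genes, which cells switch on within minutes of stimulation or stress and which also respond to tissue dissociation, fell in NPC2. Of 33 genes listed, 30 were tested, 6 fell and none rose, where 1.3% of all tested genes fell. Of the 30 differences, 25 were below 0 (46.9% of all tested genes), 18 genes did not overlap (19.5% of all) and the median was -0.72, beside 0.02 for all tested genes. The summed linear level of the list ran from 4366 to 6459 in NPC2, against 8784 to 11843 in NPC1. Dusp1, a phosphatase that shuts down MAP kinases, read 6.88, 6.46 and 6.40 in NPC2, against 8.29, 8.19, 8.09 and 8.02 in NPC1 (difference -1.57 ± 0.28, 2.96-fold higher in NPC1, limma adjusted p = 0.00353), and it passed in all the alternatives that tested it. Ppp1r15a, which restores translation after stress, read 5.85, 5.86 and 5.90 in NPC2, against 6.87, 7.18, 7.24 and 7.39 in NPC1 (-1.30 ± 0.29, limma adjusted p = 0.0215). In both genes the NPC1 libraries were all above the NPC2 libraries. Jun, a subunit of the AP-1 factor, read 9.21, 8.55 and 8.49 in NPC2, against 10.21, 10.81, 9.79 and 10.26 in NPC1 (-1.52 ± 0.35, limma adjusted p = 0.0235). The zinc finger factors Klf2 (-1.81 ± 0.41, limma adjusted p = 0.0235) and Klf6 (-0.84 ± 0.19, limma adjusted p = 0.0248) and the heat shock gene Hspa1a (-3.36 ± 0.61, limma adjusted p = 0.00388) were the other calls. Hspa1b, nearly identical in sequence to Hspa1a, differed by -0.78 ± 0.47 (limma, adjusted p = 0.641), and the sources used here do not say how reads were split between these 2 copies.

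The partner of Jun in AP-1, Fos, read 9.05, 8.25 and 8.45 in NPC2, against 9.95, 10.58, 9.65 and 9.98 in NPC1. That is a difference of -1.45 ± 0.46 without overlap, but it did not pass (limma, adjusted p = 0.135), and neither did Egr1 (-1.16 ± 0.36, limma adjusted p = 0.124) or Btg2 (-0.96 ± 0.29, limma adjusted p = 0.121). With the 7 NPC libraries alone in the fit, 13 members were lower and 1 higher, Fos, Egr1 and Btg2 passed (adjusted p 0.00868, 0.00926 and 0.00831) and Klf6 lost its call (0.0558). Of all 15564 tested genes, that fit called 417 lower and 161 higher. Ppp1r15a lost its call without any one library but NPC1 replicate 1 (adjusted p 0.0528 to 0.0932), and Klf6 without any one but NPC1 replicate 3 (0.0533 to 0.161). Jun lost its call without NPC2 replicate 2, NPC2 replicate 3, NPC1 replicate 2 or NPC1 replicate 4 (0.0574 to 0.127), Klf2 without NPC2 replicate 1, NPC2 replicate 3, NPC1 replicate 3 or NPC1 replicate 4 (0.0729 to 0.148) and Hspa1a without NPC2 replicate 1 (0.0586). The summed level of microglia markers, given further on, was also lower in NPC2, and its part in the difference was not tested. Fos, Egr1 and Btg2 were also high in aNSC, with means of 11.47, 12.89 and 8.95.

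**Figure D3:**
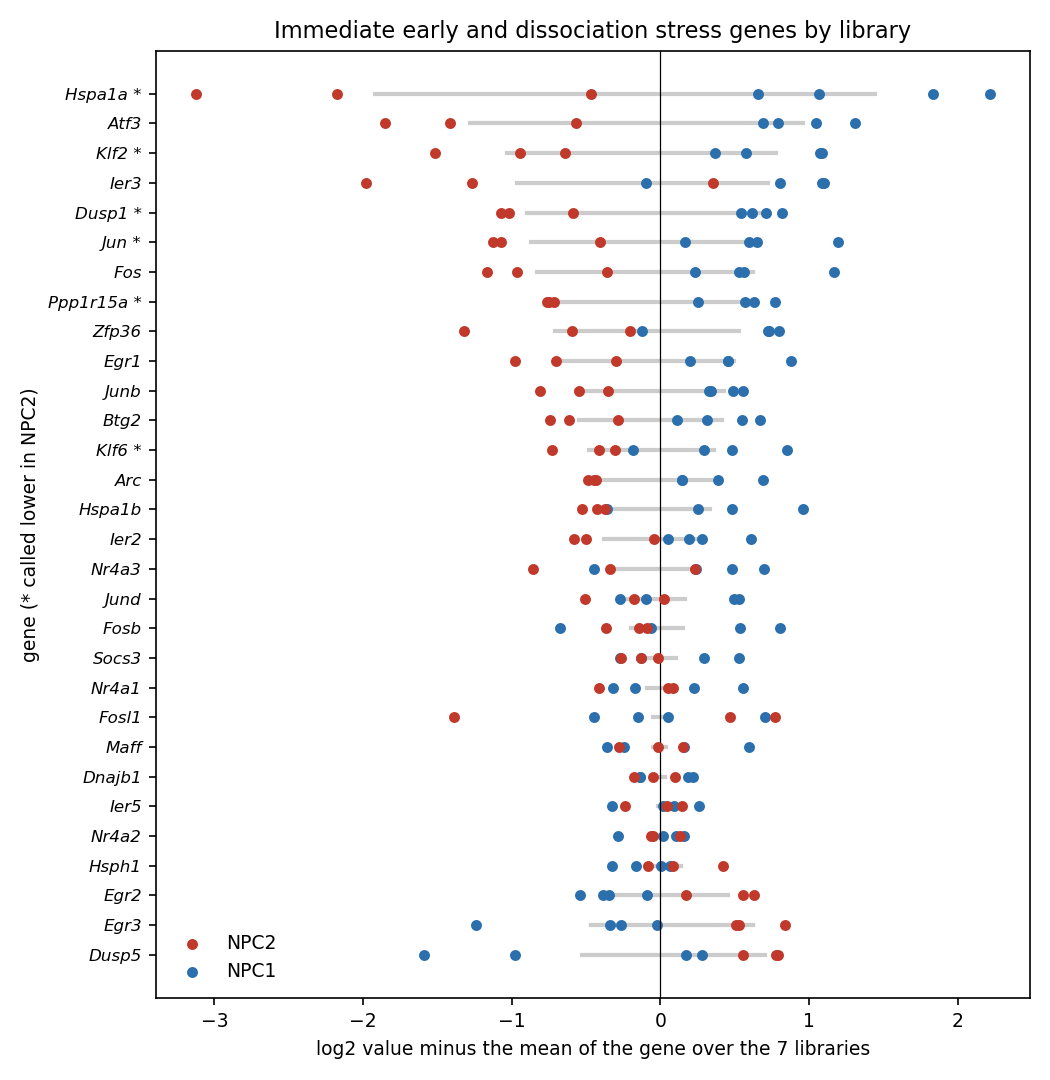
Log2 value minus the mean of the gene over the 7 libraries (x axis) for the 30 tested immediate early and dissociation stress genes (y axis), with NPC2 libraries in red and NPC1 libraries in blue, grey bars joining the group means and an asterisk at the 6 called genes. In 18 genes the points of the groups do not overlap, and the genes at the bottom, among them Dusp5 and Egr3, have the opposite sign.

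The promoters of 2 of these genes are shown because each holds a full cyclic AMP response element (CRE), the binding sequence of the CREB family that many immediate early genes carry. Both run 5′ to 3′ from 250 bases before to 50 bases after the transcript start, from RefSeq on GRCm38.p6, and capitals mark the element TGACGTCA, which reads the same on both strands.
Dusp1 promoter, chr17:26508423-26508722, minus strand: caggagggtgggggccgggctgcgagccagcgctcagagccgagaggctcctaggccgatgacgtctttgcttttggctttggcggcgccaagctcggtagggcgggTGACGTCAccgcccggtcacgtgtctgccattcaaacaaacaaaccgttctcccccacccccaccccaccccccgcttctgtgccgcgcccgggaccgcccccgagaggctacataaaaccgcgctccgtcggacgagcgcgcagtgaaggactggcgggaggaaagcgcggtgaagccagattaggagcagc
Ppp1r15a promoter, chr7:45526219-45526518, minus strand: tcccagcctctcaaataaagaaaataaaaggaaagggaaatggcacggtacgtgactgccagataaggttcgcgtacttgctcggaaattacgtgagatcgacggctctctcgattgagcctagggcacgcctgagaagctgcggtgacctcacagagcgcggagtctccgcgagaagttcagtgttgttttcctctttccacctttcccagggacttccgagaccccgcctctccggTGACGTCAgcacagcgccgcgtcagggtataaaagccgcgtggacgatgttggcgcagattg
The element begins 143 bases upstream of the start in Dusp1 and 12 bases upstream in Ppp1r15a. It was present in 4 of 33 promoters of the 25 list genes that matched (12.1%), in 10 of 191 promoters of genes called lower (5.24%), in 4 of 40 promoters of genes called higher, in 3.08% of the 13421 promoters of tested genes and in 1.79% of all 32851 promoters of this length. A match in these letters is a description and says nothing about binding in these cells.

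Among cell cycle genes, most of those of G2 and mitosis had small positive differences. All 80 genes of the G2 and M list were tested, 2 were higher and none lower, 64 of 80 differences were above 0, 43 genes did not overlap between the groups and the median was 0.25. Of all tested genes 1.55% were called, 0.244% in the higher direction, 8264 of 15564 differences were above 0, 19.5% of genes did not overlap and the median was 0.02. In limma, 5 of the 80 genes had an unadjusted p under 0.05, against 1605 of all 15564 tested genes. Ccnb1, which encodes the mitotic cyclin B1, read 8.94, 9.08 and 8.88 in NPC2, against 8.21, 8.05, 8.06 and 7.96 in NPC1, with a gap of more than 0.5 between the groups (difference 0.90 ± 0.19, 1.86-fold, limma adjusted p = 0.0143). Tubb4b, a beta tubulin, read 8.93, 8.91 and 8.95 in NPC2, against 8.55, 8.49, 8.30 and 8.13 in NPC1 (0.56 ± 0.13, limma adjusted p = 0.0263). Ube2c and Cdc20, parts of the machinery that degrades cyclin B, did not overlap either, but did not pass (0.86 ± 0.46 and 0.70 ± 0.32, limma adjusted p = 0.562 and 0.442). With only the 7 NPC libraries in the fit, 13 members were higher and none lower, Ube2c and Cdc20 among them (adjusted p = 0.00396 for both). That fit called more genes in general, 161 higher and 417 lower of all 15564 tested. Ccnb1 lost its call without NPC2 replicate 1, NPC2 replicate 2 or NPC1 replicate 4 (adjusted p 0.0512 to 0.0745), and Tubb4b without any one library but NPC1 replicate 1 or NPC1 replicate 2 (0.0762 to 0.112).

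No such shift was seen in genes of DNA replication. Of 62 S phase genes, all tested, 1 was lower, 26 of 62 differences were above 0, and the median was -0.01. The call was Nasp, a histone chaperone, at 7.79, 8.08 and 8.09 in NPC2, against 8.92, 9.21, 8.63 and 8.75 in NPC1 (-0.89 ± 0.22, limma adjusted p = 0.0381), which was lost in all 7 fits without 1 library (adjusted p 0.0546 to 0.227). The proliferation marker Mki67 read 7.16, 7.80 and 7.93 in NPC2, against 8.63, 8.44, 7.80 and 7.88 in NPC1, with overlapping groups (-0.56 ± 0.35, limma adjusted p = 0.663). Of the inhibitors of cyclin-dependent kinases, 0 of 7 tested passed in limma (0 also at an unadjusted p under 0.05), and Cdkn1c, which encodes p57, came nearest (1.08 ± 0.58, limma adjusted p = 0.564), with groups that did not overlap. Cdkn1c passed with the 7 NPC libraries alone (adjusted p = 0.00831), with library weights (0.0144) and with a replicate block on replicates 1 to 3 (0.0114). Its range was 0.00831 to 0.866 in 18 alternatives. It was followed by Cdkn1b with p27 (0.40 ± 0.27) and Cdkn1a with p21 (-0.35 ± 0.39).

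The promoter of Ccnb1 is shown because CCAAT boxes, bound by the factor NF-Y, are a known feature of G2 and M promoters. It comes from the same RefSeq table and window, and capitals mark the letters CCAAT.
Ccnb1 promoter, chr13:100786437-100786736, minus strand: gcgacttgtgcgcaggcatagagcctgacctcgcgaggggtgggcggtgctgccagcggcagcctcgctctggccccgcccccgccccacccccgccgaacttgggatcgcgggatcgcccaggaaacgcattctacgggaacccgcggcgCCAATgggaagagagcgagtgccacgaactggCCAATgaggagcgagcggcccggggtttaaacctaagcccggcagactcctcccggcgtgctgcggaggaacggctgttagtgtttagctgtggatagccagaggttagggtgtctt
Its 2 boxes begin 99 and 67 bases upstream of the start. Counting CCAAT on either strand, 54 of 73 promoters of the 66 matched G2 and M genes held at least 1 (74%), against 37.7% of the promoters of tested genes and 37.4% of all 32851 promoters. Among promoters of called genes the share was 30.0% for those called higher (12 of 40) and 42.4% for those called lower (81 of 191). CCAAT and the CRE share no overlapping match in the promoters shown.

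Genes for translation and energy supply lay slightly above 0 as groups, with no gene called. Of 79 cytosolic ribosomal protein genes, all tested, 71 had a positive difference, with a median of 0.19, 0 calls in limma and 0 genes with an unadjusted p under 0.05. Of 75 nuclear genes of oxidative phosphorylation, 68 had a positive difference, with a median of 0.15, 0 calls in limma and 4 genes with an unadjusted p under 0.05. Of all 15564 tested genes, 8264 had a positive difference and 1605 an unadjusted p under 0.05 in limma. The libraries within a group differed by as much. Relative to the mean of the 7 libraries, the median ribosomal protein gene stood at -0.02, 0.22 and 0.15 in NPC2, against 0.11, 0.04, -0.17 and -0.32 in NPC1, so the groups overlapped. Single calls came from other metabolic lists, namely Psat1 of serine synthesis (0.77 ± 0.18, limma adjusted p = 0.025) and the lactate dehydrogenase gene Ldha (0.60 ± 0.16, limma adjusted p = 0.0468), both higher in NPC2. Both calls were lost without any one library but NPC1 replicate 2 (adjusted p 0.0594 to 0.161 and 0.0858 to 0.21). Ldha lost its call in 10 of the 18 alternatives, among them centring on a trimmed mean (adjusted p = 0.0505) and no trend or robust setting (0.0797). Hspa5, the chaperone of the endoplasmic reticulum, was lower at 10.03, 9.86 and 9.86 in NPC2, against 10.38, 10.78, 10.52 and 10.88 in NPC1 (-0.73 ± 0.14, limma adjusted p = 0.00784), and was 1 of 2 calls among 29 genes of the unfolded protein and stress response, next to Ppp1r15a.

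**Figure D4:**
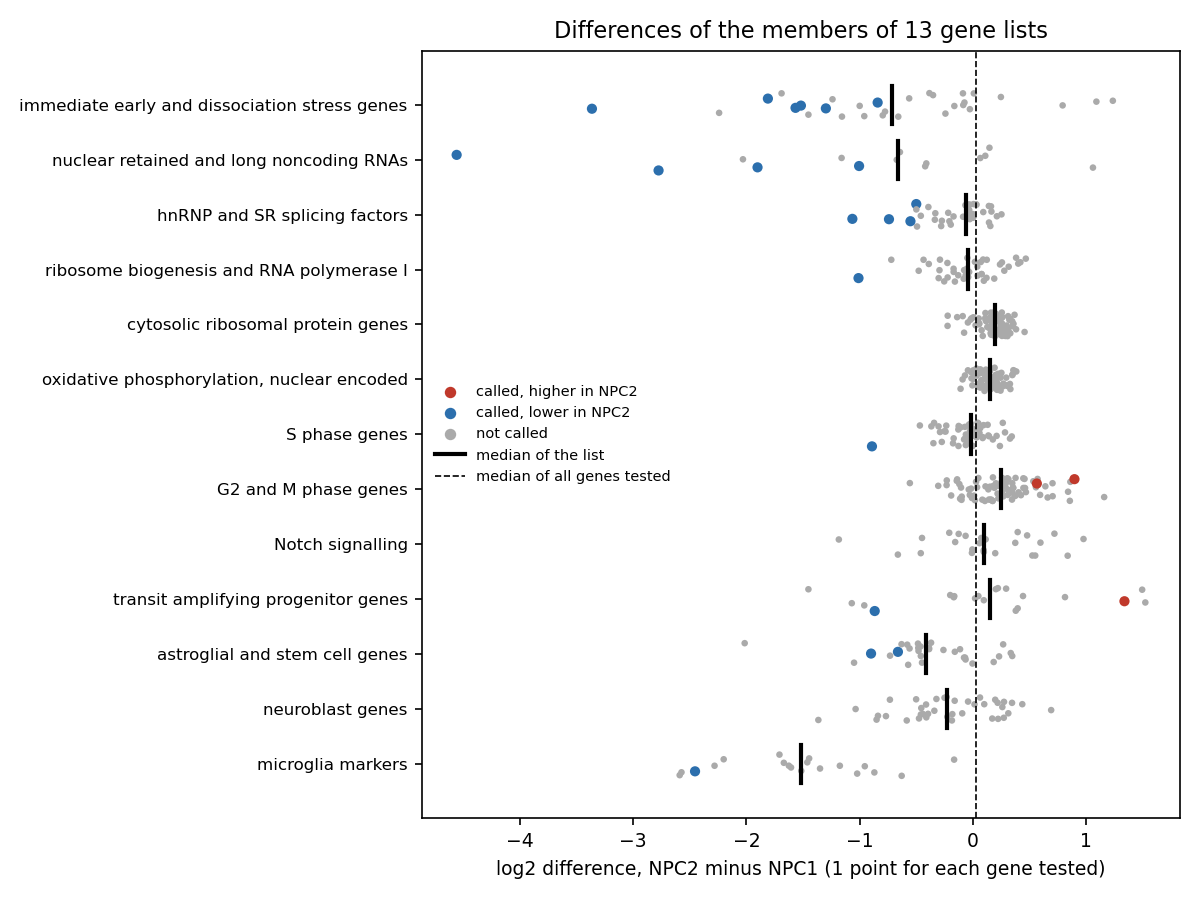
Log2 difference of NPC2 minus NPC1 (x axis) for each tested member of 13 gene lists (y axis), with called genes in red (higher in NPC2) or blue (lower), a thick line at the median of each list and a dashed line at the median of all tested genes (0.02). The medians of the immediate early genes (-0.72), nuclear RNAs (-0.66) and microglia markers (-1.52) lie well left of the dashed line, and that of the G2 and M genes (0.25) lies right of it.

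Of the 51 gene lists, 28 held at least 1 called gene and 23 none, and 202 of the 241 called genes were in no list. Single calls included Zeb1, a repressor kept in progenitors (0.84 ± 0.19, limma adjusted p = 0.0233), which was higher, and the growth arrest gene Gadd45g (-0.96 ± 0.21, limma adjusted p = 0.015), both from the list of quiescence regulators. Gnl3, which encodes nucleostemin (-1.01 ± 0.26, limma adjusted p = 0.0396), the lysosomal channel gene Mcoln1 (-0.75 ± 0.17, limma adjusted p = 0.0246), the synaptic neurexin Nrxn2 (-0.66 ± 0.15, limma adjusted p = 0.0246) and the NF-kB kinase gene Chuk (-0.97 ± 0.22, limma adjusted p = 0.0228) were lower. So were Mtf2 of the PRC2 complex (-0.66 ± 0.17, limma adjusted p = 0.045) and the cilium gene Cep290 (-0.75 ± 0.18, limma adjusted p = 0.0334). Gnl3, Mtf2 and Cep290 lost their call in all 7 fits without 1 library (adjusted p 0.0538 to 0.206, 0.0579 to 0.37 and 0.052 to 0.223), Mtf2 also with the 7 NPC libraries alone (0.0512), and Mcoln1 in all but that without NPC1 replicate 1 (0.0502 to 0.156). Zeb1 and Nrxn2 kept theirs only without NPC1 replicate 1 or NPC1 replicate 2 (otherwise 0.0724 to 0.0916 and 0.0636 to 0.112), and Chuk only without NPC1 replicate 1 or NPC1 replicate 3 (otherwise 0.0597 to 0.0918). Gadd45g lost its call without NPC2 replicate 1, NPC2 replicate 3 or NPC1 replicate 4 (0.0532 to 0.135). Among lower genes that passed in every alternative that tested them, and that were chosen after their values were seen, were Ankrd11, a chromatin regulator (-0.98 ± 0.15), Ppan of ribosome assembly (-0.87 ± 0.13), Shisa2, an antagonist of Wnt and FGF receptors (-0.89 ± 0.15), Pmepa1, which dampens TGF-beta signals (-0.93 ± 0.17), Rbm28 (-0.88 ± 0.16) and Tle2. The last, a Groucho corepressor, read -2.53, -4.24 and -3.23 in NPC2, against 1.97, 0.39, 1.14 and 2.33 in NPC1, near the floor in NPC2 and low in NPC1 (limma, adjusted p = 1.07e-07).

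Astroglial and neuroblast genes placed NPC2 and NPC1 less clearly. Of 30 astroglial genes 25 had a negative difference, with a median of -0.42, and of 39 tested neuroblast genes 25 were below 0, with a median of -0.23 (46.9% of all tested genes were below 0), 0 calls in limma and 6 genes with an unadjusted p under 0.05. Both medians rest in part on NPC1 replicate 1. Without it the astroglial median was -0.70 and the neuroblast median -0.07. The GABA synthesis gene Gad2 read 4.98, 4.97 and 4.98 in NPC2, against 6.97, 6.39, 6.04 and 5.96 in NPC1 (-1.36 ± 0.43, limma adjusted p = 0.13), and the neuronal RNA-binding gene Elavl3 differed by -0.77 ± 0.20 (limma, adjusted p = 0.0534). Both were separate between the groups without passing. Gad2 passed with the 7 NPC libraries alone (adjusted p = 0.00833), with library weights (0.000138) and with a replicate block on replicates 1 to 3 (0.00344). Its range was 0.000138 to 0.348 in 18 alternatives. Elavl3 passed in 6 of them, among these that without NPC1 replicate 2 (adjusted p = 0.0301, range 0.000674 to 0.284). Doublecortin (Dcx), the standard neuroblast marker, read 6.65, 6.16 and 6.48 in NPC2, against 7.26, 6.38, 6.06 and 5.96 in NPC1, a difference of 0.01 ± 0.35 (limma, adjusted p = 0.997).

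Of 9 surface antigens commonly used to sort cells of this niche, Egfr alone passed. The glutamate transporter Slc1a3 read 8.37, 8.42 and 8.52 in NPC2, against 7.34, 8.33, 8.32 and 8.37 in NPC1 (difference 0.35 ± 0.22, limma adjusted p = 0.674). The neuroblast antigen Cd24a read 8.68, 8.41 and 8.46 in NPC2, against 8.86, 7.66, 7.43 and 7.35 in NPC1 (0.69 ± 0.34, limma adjusted p = 0.511). The groups overlapped narrowly for Slc1a3, and for Cd24a through NPC1 replicate 1, which stood lowest of the 7 libraries for Slc1a3 and highest for Cd24a. F3, the tissue factor gene, differed by -1.20 ± 0.41 (limma, adjusted p = 0.199), and passed without NPC1 replicate 1 (adjusted p = 0.0402, range over the alternatives 0.00121 to 0.517). The tetraspanin Cd9 (0.23 ± 0.13), the adhesion genes Vcam1 (0.40 ± 0.36) and Ncam1 (-0.23 ± 0.17), the stem cell antigen Prom1 (-0.10 ± 0.21) and the chemokine receptor Cxcr4 (-0.19 ± 0.38) overlapped, with adjusted p of 0.633 or more in limma.

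Differences of the microglia markers lay below 0 in all those tested. All 19 tested microglia markers, of 20 listed, had a negative difference, with a median of -1.52, and the 20th, Ptprc, lay at the floor in all NPC2 libraries. Their summed linear level was 209 to 278 in NPC2, against 345 to 440 in NPC1. Laptm5, a lysosomal protein of blood cells, was the 1 call, at 0.37, 2.72 and 0.62 in NPC2, against 3.19, 4.19, 4.02 and 3.38 in NPC1 (-2.45 ± 0.61, limma adjusted p = 0.0375). It was lost without NPC2 replicate 1, NPC2 replicate 3, NPC1 replicate 2, NPC1 replicate 3 or NPC1 replicate 4 (adjusted p 0.0751 to 0.275). Outside the lists, further leukocyte genes chosen after their values were seen were lower, namely the actin bundler Lcp1, the integrin Itgb2, the chemokine Ccl3, the complement receptor C3ar1, the receptor Il10ra, the G protein regulator Rgs1 and the granule proteoglycan Srgn (limma, adjusted p 0.0118 to 0.0498). Each had at least 1 NPC2 library at the floor and averaged under 3 in NPC1, and each lost its call when values below 0 were set to 0 (adjusted p 0.085 to 0.726), Lcp1 also with the 7 NPC libraries alone (0.0546). All 7 also lost it without NPC2 replicate 1, and each without at least 1 other library (adjusted p 0.052 to 0.379 over these fits). Ccdc153, an ependymal gene, lay at the floor in all 3 NPC2 libraries and at 0.26 to 2.1 in NPC1 (limma, adjusted p = 0.0335), and lost its call in all 7 fits without 1 library (0.0632 to 0.134). Among the remaining lists of cell type markers, the only call in limma was Meg3, in the list of mature neuron markers. Of 10 tested mature neuron markers 6 were below 0 (median -0.77), and of 3 fibroblast and meningeal markers 2 (median -0.66). Of these, 3 and 0 had an unadjusted p under 0.05. Differences were below 0 in 5 of 6 tested endothelial markers (median -1.19), 3 of 3 mural markers (median -0.94) and 2 of 2 choroid plexus markers (median -2.05), and 2, 1 and 2 of these had an unadjusted p under 0.05. The summed endothelial level was 16.2 to 40.1 in NPC2, against 19.8 to 41.4 in NPC1, that of mural markers 6.83 to 9.26 in NPC2, against 6.25 to 12.3 in NPC1, and that of choroid plexus markers 4.05 to 8.33 in NPC2, against 10.1 to 29.5 in NPC1. Of 5 oligodendrocyte markers 3 were below 0 (median -0.07), and of 5 red cell markers 2 (median 0.28), with 1 and 0 at an unadjusted p under 0.05. Of 10 oligodendrocyte precursor markers, Olig2 among them, 6 were below 0 (median -0.35) and 3 had an unadjusted p under 0.05. In 4 of the 10 the groups did not overlap (19.5% of all tested genes). Their summed level was 132 to 150 in NPC2, against 62.4 to 110 in NPC1. The 1 tested lymphocyte or granulocyte marker differed by 0.11. Of 6 sex linked transcripts 0 were called in limma, 5 were below 0 (median -0.75) and 3 had an unadjusted p under 0.05. Their summed level was 102 to 131 in NPC2, against 150 to 362 in NPC1. Whether the sex of the mice differed between the groups was not tested. The part of the microglial RNA in the other differences was not tested.

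The called genes were also set beside the populations labelled before and after the progenitors, whose libraries entered the estimate of the spread but not the difference. Of the 38 genes higher in NPC2, 26 had a higher mean in aNSC than in NB1 (68.4%). Of the 203 genes lower in NPC2, 132 did (65%), against 7535 of all 15564 tested genes (48.4%). In both directions the share was above that of all tested genes.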

How the data were processed

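RNA of 3 NPC2 and 4 NPC1 libraries was analysed, with the other 21 freshly sorted libraries used to estimate the spread. Per the labels' protocols, libraries were prepared from poly(A) RNA using SMARTer Ultra Low and Nextera XT reagents, which do not mark strand, for NextSeq sequencing. Tools listed in the submitters' processing notes are HISAT2 and featureCounts, beside limma, FastQC, Trimmomatic and cutadapt, without roles or versions, with GRCm38 (mm10) as the build. The log2 values deposited by the authors cover 19909 genes, and their unit was worked out from the values. In each column, 2 to the power of the value summed to between 987636 and 987910, and all columns had nearly the same distribution, as joint quantile normalisation leaves. Such a scale hides a change in total RNA per cell, and read totals are not given. Blank lines (1770) were dropped, and 23 symbols turned into dates were followed by Ensembl identifier. Coordinates came from GENCODE M21, which held 19863 of the identifiers.

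Genes with a value of at least 0 in at least 3 libraries of either group were tested with limma 3.58.1 in R 4.3.3 (8 group means over 28 libraries, empirical Bayes with trend and robust settings), with Benjamini-Hochberg adjustment. On simulated data for the same 15564 genes, the NPC2 minus NPC1 fit recovered 47 of 100 genes changed by 1 log2 unit and 76 of 100 changed by 2, with 4 false calls. The simulated noise was normal and independent between genes. It held no difference in depth or floor between the groups and no shift shared by the genes of a library. The false calls in it therefore cannot give the error rate of the real libraries. Of the called genes 153 of 241 overlap another gene model, against 62.1% of all tested genes. Of the 105 named genes 39 have an antisense model, Egfr, Gramd1a, Pax6, Dusp1 and Jun among them, and reads of both strands cannot be told apart. The comparison and the 51 gene lists were chosen with earlier results of these data known. Genes were named where they were common surface antigens or fate and cycle regulators (1 of which is not reported here), were the 10 largest differences or the 5 smallest p each way among called genes (higher group averaging 4.3 or more, libraries without overlap, ordinary symbol), or were called members of a list, and others are said to be chosen after their values were seen. The alternatives were the libraries in the fit, library weights, centring, the floor, the filter, the empirical Bayes settings, a replicate block, a length and GC correction, and leaving out each library.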

Additional observations from a re-analysis of the deposited data

Results flagged for a closer look

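Of 105 named genes screened in the 4 NPC1 libraries, 7 had 1 library further from the rest than Dixon's test at its 95% level allows, and chance gives such a result in about 1 of 20 groups. NPC1 replicate 1 was the outlying library in 5 of them. Slc1a3 read 7.34 there, against 8.32 to 8.37 in the other NPC1 libraries, F3 read 3.23 against 4.70 to 4.88, and Mfge8 8.39 against 9.44 to 9.55. Shisa2 read 6.33 in NPC1 replicate 1 against 6.77 to 6.83, and Ccl3 2.29 against 3.14 to 3.29. Hnrnpdl read 8.47 in NPC1 replicate 3 against 8.67 to 8.69, and Ldha 7.41 in NPC1 replicate 2 against 7.03 to 7.07.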

How the results depend on the processing

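Of the 241 called genes, all kept their direction in each alternative that tested them, and the number called moved far more than the direction. It was 578 with only the NPC2 and NPC1 libraries in the fit (27.9% of them higher in NPC2), 2971 with library weights (44.7%) and 362 with a replicate block on replicates 1 to 3 (26.8%), against 241 (15.8%) as reported. It lay between 73 and 193 when 1 library was left out, with 7.5% to 18.9% of the calls higher, and between 166 and 312 in the other alternatives. Deviations of same-numbered libraries correlated at 0.03, 0.19 and 0.08, and those of the other pairs at -0.17 to 0.11. NPC2 replicate 1 and NPC2 replicate 3 correlated best with NPC1 replicate 4, and NPC2 replicate 2 with NPC1 replicate 2. These values do not show whether the replicate numbers pair the libraries. The same 6 libraries without the block, a fit chosen after seeing the data, gave 281 calls. With the block 12 named genes gained a call and 9 lost one, against 11 and 17 on the same libraries without it. Without the trend and robust settings 13 named genes lost a call, and without the filter on low values 5 did. With genes passing in any sorted population 4 lost one, and with centring on a trimmed mean 3. In these settings 0 named genes gained a call. Over the 105 named genes, 1508 of the values under these alternatives kept their direction and side of the threshold, 298 lost a call, 48 gained one and 11 changed sign. The sign changes were all in genes that were not called. Dcx lay at -0.1384 with the replicate block and also on the same libraries without it, and Mycn at -0.0278 with library weights. When 1 library was left out, Dcx lay between -0.1384 and 0.2961, Cxcr4 between -0.3871 and 0.0465, Dll1 between -0.1188 and 0.2425 and Mycn between -0.1088 and 0.0845. Of the list medians under the alternatives, 839 moved by less than the spread between libraries and 40 by more. Depth limits the low genes, since each NPC2 library had more genes at its floor than any NPC1 library.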
